A study of Mus musculus with 6 samples.

Results

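The genes examined here are 34 genes of NF-κB, Toll-like receptor and interleukin-1 signaling, chosen as a named list of pathway members, and each had 1 probe among the 787 probes measured. They comprise 20 genes for intracellular signaling proteins and 14 genes for ligands and receptors. RNA was taken from hypothalami of 3 *Fmr1* KO and 3 WT mice, which were 8-week-old females in diestrus, perfused with cold PBS before dissection. The *Fmr1* KO mice carry a targeted null allele of *Fmr1* in every cell, and the WT mice are congenic controls, both lines on the FVB background and neither given any drug. Each mouse gave 1 lane of the nCounter Mouse Neuroinflammation Panel with 50 ng of RNA, in which colour-coded probes bound to each RNA are counted without amplification. The comparison asks which genes differ in RNA level in the hypothalamus when *Fmr1* is lost. Counts of *Fmr1* itself were not analysed here, and the genotypes are those of the labels.

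NF-κB is a family of transcription factors held in the cytoplasm by IκB proteins. Ligands such as interleukin-1, tumor necrosis factor and microbial products bind receptors at the cell surface or in endosomes. Adaptor proteins (MyD88, the TRAFs) and IRAK kinases pass the signal to the IκB kinase complex. This complex marks IκB for destruction, and NF-κB then enters the nucleus and switches on inflammatory genes and genes of its own inhibitors. In the brain the Toll-like receptors and the cytokines are best known from microglia, whereas the kinases and adaptors are made by most cell types.

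Total counts per lane ranged from 165514 to 339934, and *Fmr1* KO replicate 2 was the shallowest lane. The raw counts were multiplied by 1 factor per lane taken from the authors' value table, and the products are called normalized counts. These factors lay between 0.767 and 1.72, with the highest in *Fmr1* KO replicate 2. Microglial markers were well measured, since all 13 on the panel were tested, whereas 9 markers of blood leukocytes summed to only 60 to 84 raw counts per lane. In whole tissue, fewer cells of a type and less RNA per cell cannot be told apart. Markers of neighbouring tissue varied between mice. *Prl* (pituitary) had 3.07, 10.3 and 10.1 normalized counts in *Fmr1* KO and 115, 5.98 and 1499 in WT replicates 1, 2 and 3. *Tbr1* (cortex) had 37.6, 63.5 and 41.7 in *Fmr1* KO and 22.5, 23.9 and 29.5 in WT mice. For *Slc17a7* (cortex) and *Ttr* (choroid plexus) the groups overlapped. The part of dissection in the values below was not tested. The 3 *Fmr1* KO mice were in other lanes of the cartridge than the 3 WT mice, lanes 4 to 6 against 1 to 3, and position on the cartridge cannot be told apart from genotype. No label says which mice shared a litter.

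Intracellular members passed the count minimum more often than ligand and receptor genes. The minimum was a raw count over 20 in 3 or more of the 6 lanes, and 22 of the 34 members and 601 of all 787 probes met it and were tested. Of the intracellular genes 16 of 20 met it, and of the ligand and receptor genes 6 of 14. None of the 4 ligand genes did. *Il1b* and *Il1a*, encoding the interleukin-1 cytokines, *Tnf*, encoding tumor necrosis factor, and *Il1rn*, encoding the antagonist of the interleukin-1 receptor, had raw counts of 3 to 16 in all lanes. The members just inside the minimum were *Tlr4* and *Cd14*, above 20 in exactly 3 lanes, and those just outside were *Tlr2*, *Nfkbie* and *Nlrp3*, above 20 in 1 lane.

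**Figure D1:**
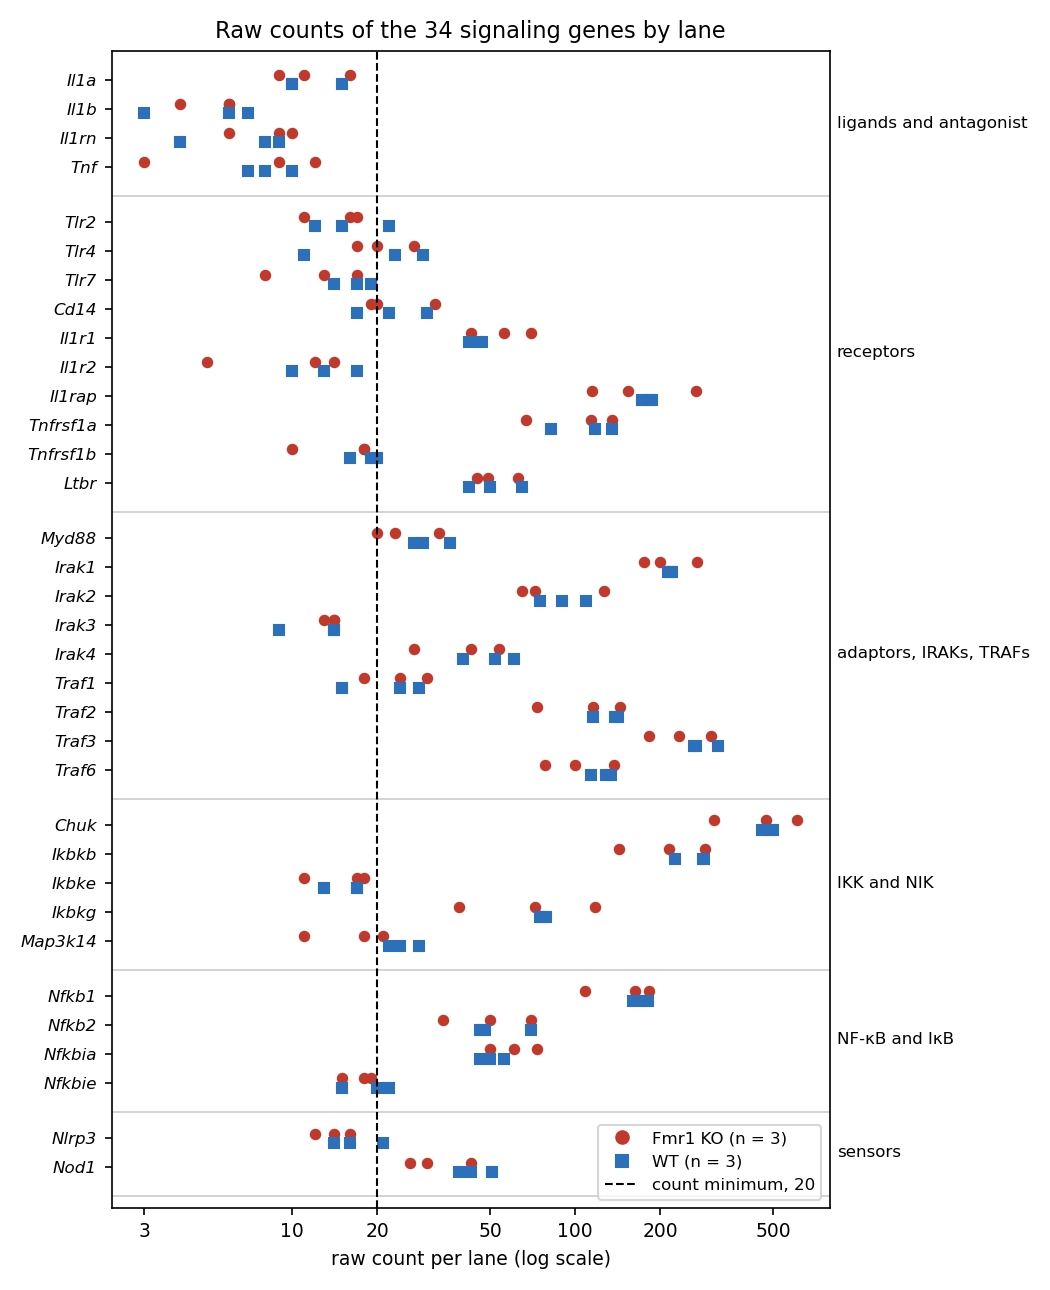
Raw count per lane (log axis) of each of the 34 genes, grouped by role, with *Fmr1* KO mice as circles above WT mice as squares (3 each) and the count minimum of 20 as a dashed line. All 4 ligand genes lie left of the line in every lane, and the kinase gene *Chuk* reaches 608.

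No member passed an adjusted p under 0.05 in edgeR, either higher or lower in *Fmr1* KO hypothalami. Over all 601 tested probes, 0.499% passed as higher and 0.333% as lower. Before adjustment, edgeR gave a p under 0.05 to 2 of the 22 tested members as higher, *Nfkbia* and *Il1r1*, which is 9.09% against 5.66% of all tested probes. None was lower by that measure, against 2.83% of all tested probes. With DESeq2 1 member, *Il1r1*, was higher at an unadjusted p under 0.05, with limma the same 2 members as with edgeR, and with the methods' t-test none. No member passed the adjusted threshold in any of these. Neither gene had an unadjusted p under 0.05 from edgeR when *Fmr1* KO replicate 2 or 3 or WT replicate 1 or 3 was left out, and *Nfkbia* alone had one without WT replicate 2. Of the tested members 14 (63.6%) had a log2 fold change above 0, against 52.7% of all tested probes. Their median log2 fold change was 0.13, against 0.01 for all tested probes. It was 0.043 without *Fmr1* KO replicate 2 and 0.033 without WT replicate 2.

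**Figure D2:**
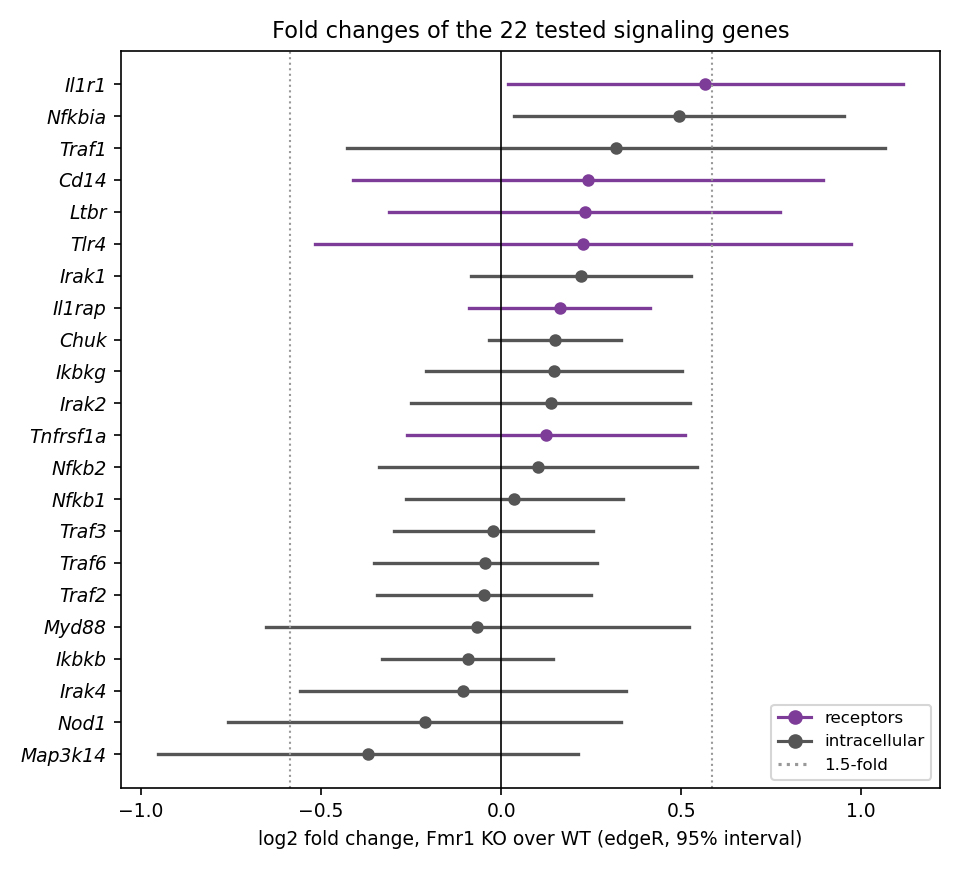
Log2 fold change of *Fmr1* KO over WT for the 22 tested members (points) with 95% intervals from edgeR (lines), ordered by size, and dotted lines at 1.5-fold. Only the intervals of *Il1r1* and *Nfkbia* leave out 0, before any adjustment for multiple tests.

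The genes closest to a difference were an IκB gene and the signaling receptor of interleukin-1. To show the regulatory sequence of these genes, the 300 bases around the start site (250 before and 50 after) are given for *Nfkbia* and *Il1r1*, for *Nfkb2* as the other tested NF-κB family gene with the motif, and for *Map3k14* as the tested member with the lowest log2 fold change. The sequences are those of RefSeq on build GRCm38.p6, written along the gene's strand. Capitals mark matches to the κB consensus, the 10-base motif that NF-κB binds, on either strand, and the *Map3k14* window holds none. For *Il1r1* and *Nfkb2*, which have several start sites, a window with a match was picked. The first *Il1r1* start site has no match in its window, and which start gave the counted RNA is not known here.
*Nfkbia*, chr12:55492598-55492897, minus strand: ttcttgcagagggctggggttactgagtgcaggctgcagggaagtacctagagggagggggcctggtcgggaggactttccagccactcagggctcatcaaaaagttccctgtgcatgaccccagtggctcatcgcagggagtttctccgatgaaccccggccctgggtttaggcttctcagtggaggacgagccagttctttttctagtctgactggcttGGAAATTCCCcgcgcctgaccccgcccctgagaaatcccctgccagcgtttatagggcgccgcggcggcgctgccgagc
*Il1r1*, second of 2 start sites, chr1:40266336-40266635, plus strand: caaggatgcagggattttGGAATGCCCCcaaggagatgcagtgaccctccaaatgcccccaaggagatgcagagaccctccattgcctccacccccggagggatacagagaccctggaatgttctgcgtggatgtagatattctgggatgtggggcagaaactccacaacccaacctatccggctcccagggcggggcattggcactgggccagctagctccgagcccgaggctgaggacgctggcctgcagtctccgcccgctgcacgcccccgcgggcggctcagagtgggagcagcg
*Nfkb2*, first of 3 start sites, chr19:46304487-46304786, plus strand: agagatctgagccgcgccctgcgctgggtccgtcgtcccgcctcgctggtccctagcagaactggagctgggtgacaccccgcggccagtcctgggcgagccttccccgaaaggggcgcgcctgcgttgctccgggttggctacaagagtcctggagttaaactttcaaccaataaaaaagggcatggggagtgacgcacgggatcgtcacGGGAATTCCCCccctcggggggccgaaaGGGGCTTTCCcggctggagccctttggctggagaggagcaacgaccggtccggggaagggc
*Map3k14*, chr11:103267352-103267651, minus strand: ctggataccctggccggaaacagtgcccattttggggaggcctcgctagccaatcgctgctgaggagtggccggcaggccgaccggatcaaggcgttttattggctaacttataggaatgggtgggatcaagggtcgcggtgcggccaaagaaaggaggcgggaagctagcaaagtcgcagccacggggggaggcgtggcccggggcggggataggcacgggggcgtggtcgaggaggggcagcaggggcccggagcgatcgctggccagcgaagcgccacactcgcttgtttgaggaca

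Promoters of 29 members were at hand in the table used, with those of *Cd14*, *Ikbkb*, *Nfkb1*, *Tlr4* and *Tlr7* not used here. The κB consensus was found in a promoter of 7 of the 29 genes (24.1%), against 5.14% of all genes in the table. These were *Nfkbia*, *Nfkb2*, *Nfkbie*, *Il1r1*, *Tlr2*, *Traf3* and *Nlrp3*. In *Nfkbia* the match was GGAAATTCCC, 29 to 20 bases before the start, and in *Nfkb2* one of the matches was GGGAATTCCC, 39 to 30 bases before the start. The looser motif GGGNNNNNCC, read on both strands, takes in every match of the consensus, and was found for 79.3% of these members against 53.5% of all genes. The 4 tested genes with the consensus spanned log2 fold changes of -0.02 (*Traf3*) to 0.57 (*Il1r1*), and the 14 tested genes with a promoter without it spanned -0.37 to 0.32. A gene was counted if any of its windows held a match, and *Il1r1* counted through only 1 of its 2 windows. A match says only that these letters are in the window.

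Among the NF-κB subunits and their inhibitors, *Nfkbia* was the member with the smallest p. It encodes IκBα, the main cytoplasmic inhibitor of NF-κB and itself a classical target of NF-κB. Normalized counts of *Nfkbia* were 56.0, 85.8 and 68.7 in *Fmr1* KO replicates 1, 2 and 3, and 46.9, 55.8 and 42.4 in WT replicates 1, 2 and 3. The groups did not overlap, with *Fmr1* KO higher, although the lowest *Fmr1* KO mouse and the highest WT mouse were almost level. The means were 70.2 ± 15.0 in *Fmr1* KO and 48.4 ± 6.82 in WT mice (SD, n = 3 each). This gave 0.50 as the log2 fold change, with a standard error of 0.21 and a 95% interval of 0.04 to 0.95 (adjusted p = 0.552 from edgeR). Of the 22 tested members *Nfkbia* alone (4.55%) had every *Fmr1* KO mouse above every WT mouse, against 6.82% of all tested probes. Raw counts were 73, 50 and 61 in *Fmr1* KO and 50, 56 and 46 in WT lanes, so that the 50 counts in the shallow lane gave the highest normalized value. Without that lane the log2 fold change was 0.35.

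*Nfkb2* encodes the precursor of the p52 subunit of the noncanonical arm. It had 53.7, 58.4 and 56.3 normalized counts in *Fmr1* KO and 43.2, 47.8 and 64.5 in WT mice. The *Fmr1* KO mice lay within the range of the WT mice, and the log2 fold change was 0.10 (95% interval -0.34 to 0.54, adjusted p = 0.934 from edgeR). *Nfkb1*, encoding the precursor of p50, had a log2 fold change of 0.04 (95% interval -0.26 to 0.34), with 169 ± 26.0 normalized counts in *Fmr1* KO and 163 ± 4.97 in WT mice (SD, n = 3 each). *Nfkbie*, encoding the inhibitor IκBε, had raw counts of 18, 15 and 19 in *Fmr1* KO and 20, 15 and 22 in WT lanes and was not tested. The remaining subunit genes of the family on the panel were named after their values were seen. *Rela*, encoding p65, had a log2 fold change of 0.07 and *Relb* one of -0.12, with adjusted p of 0.941 and 0.934 from edgeR. *Rela* was at 0.0005 without *Fmr1* KO replicate 3 and at 0.14 without WT replicate 3.

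Of the interleukin-1 receptor genes, *Il1r1* had the highest log2 fold change of all tested members. It encodes the receptor chain that binds interleukin-1, and *Il1rap* encodes the accessory chain that it needs to signal. Normalized counts of *Il1r1* were 42.9, 73.8 and 78.8 in *Fmr1* KO replicates 1, 2 and 3, and 42.2, 46.8 and 38.7 in WT replicates 1, 2 and 3. *Fmr1* KO replicates 2 and 3 were high, and replicate 1 was within the WT range. The means were 65.2 ± 19.4 in *Fmr1* KO and 42.6 ± 4.08 in WT mice (SD, n = 3 each). The difference was 0.57 on the log2 scale, with a standard error of 0.25 and a 95% interval of 0.02 to 1.11 (adjusted p = 0.581 from edgeR). Leaving out 1 mouse at a time gave log2 fold changes from 0.38, without *Fmr1* KO replicate 3, to 0.85, without *Fmr1* KO replicate 1.

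*Il1r1* is known from brain endothelium among other cells, and the summed normalized count of 7 endothelial markers was 749, 930.3 and 939 in *Fmr1* KO and 873, 769 and 943 in WT replicates 1, 2 and 3. The *Fmr1* KO mouse with the lowest *Il1r1* value thus also had the lowest endothelial sum, while WT replicate 3 had a high endothelial sum and the lowest *Il1r1* value. Of these 7 markers none passed at an unadjusted p under 0.05, and 4 had a log2 fold change above 0. The 10 markers of oligodendrocytes summed to 19794, 26540.2 and 27338 in *Fmr1* KO and 16933, 15378 and 22884 in WT mice. For 9 of the 10 edgeR gave an unadjusted p under 0.05, all higher, against 5.66% of all tested probes. Of the 10, 1 passed the adjusted threshold. Of 4 astrocyte markers none had a log2 fold change above 0. Among these, edgeR gave 2 an unadjusted p under 0.05, both lower, against 2.83% of all tested probes. The part of any of these cell types in the *Il1r1* values was not tested.

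*Il1rap* had 205, 197 and 173 normalized counts in *Fmr1* KO and 175, 171 and 169 in WT mice. *Fmr1* KO replicate 3 fell among the WT mice, and the log2 fold change was 0.16 (95% interval -0.09 to 0.41, adjusted p = 0.765 from edgeR). It was 0.10 without *Fmr1* KO replicate 1. *Il1r2*, the decoy receptor, had raw counts of 12, 14 and 5 in *Fmr1* KO and 13, 10 and 17 in WT lanes. It was not tested.

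**Figure D3:**
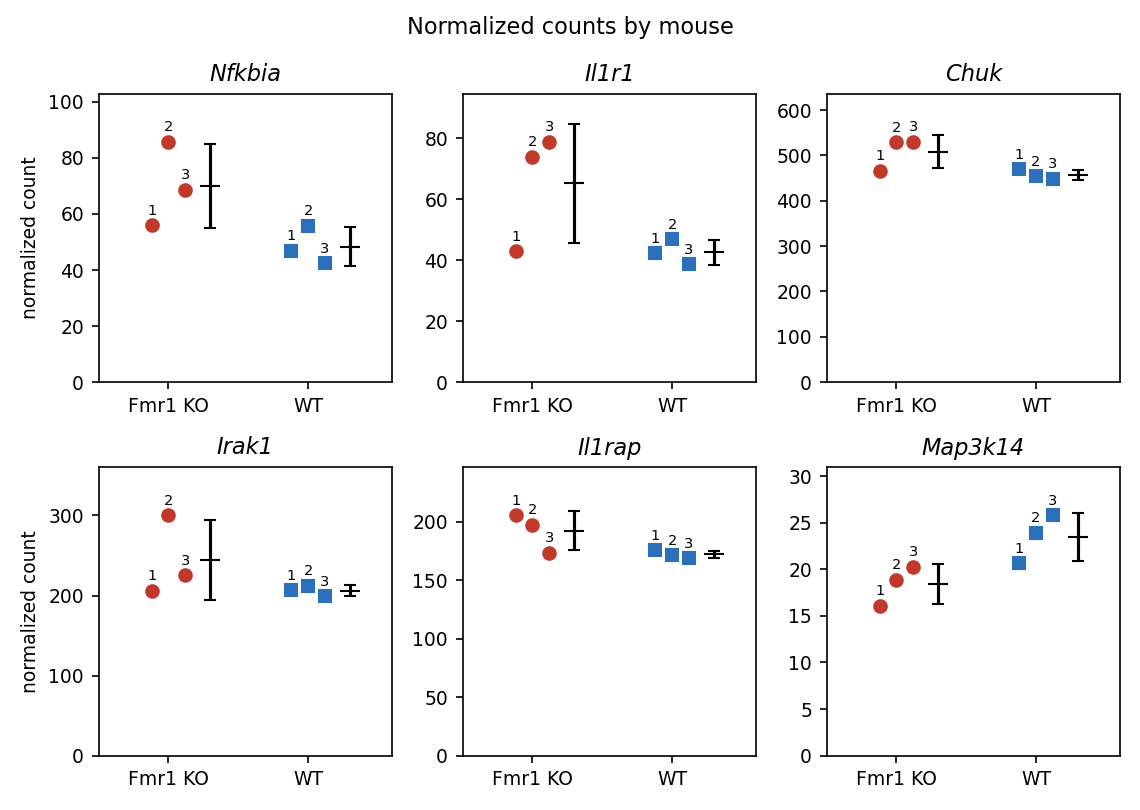
Normalized count per mouse (linear axes from 0) for *Nfkbia*, *Il1r1*, *Chuk*, *Irak1*, *Il1rap* and *Map3k14*, with *Fmr1* KO left of WT, numbers for the replicates, and mean ± SD beside each group of 3. The groups separate for *Nfkbia*, higher in *Fmr1* KO, and for *Map3k14*, lower in *Fmr1* KO, and overlap for the other 4 genes.

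For the Toll-like and tumor necrosis factor receptor genes no difference was detectable at this depth. *Tlr4*, encoding the receptor of bacterial lipopolysaccharide, had raw counts of 27, 17 and 20 in *Fmr1* KO and 29, 11 and 23 in WT lanes. *Cd14*, encoding its co-receptor, had 32, 20 and 19 raw counts in *Fmr1* KO and 17, 22 and 30 in WT lanes. For both the groups overlapped, with log2 fold changes of 0.23 (95% interval -0.52 to 0.97) and 0.24 (95% interval -0.41 to 0.89). With 1 mouse left out, *Cd14* spanned 0.061 (without WT replicate 1) to 0.45 (without WT replicate 3), and was at 0.085 without *Fmr1* KO replicate 2. *Tlr2*, which senses bacterial lipoproteins, had 16, 17 and 11 raw counts in *Fmr1* KO and 22, 12 and 15 in WT lanes. *Tlr7*, which senses single-stranded RNA, had 8, 13 and 17 raw counts in *Fmr1* KO and 17, 14 and 19 in WT lanes. *Tlr2* and *Tlr7* were under the minimum and were not tested. Beside these receptors, the 13 microglial markers summed to 1699, 1919 and 1877 normalized counts in *Fmr1* KO and 1871, 1839 and 2067 in WT mice, and 3 of them had a log2 fold change above 0.

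*Tnfrsf1a*, encoding the widely expressed tumor necrosis factor receptor, had 116 ± 12.4 normalized counts in *Fmr1* KO and 105 ± 21.7 in WT mice (SD, n = 3 each). The difference was 0.12 on the log2 scale (95% interval -0.26 to 0.51). *Ltbr*, encoding the lymphotoxin β receptor, had 48.3, 84.1 and 50.7 normalized counts in *Fmr1* KO and 46.9, 41.9 and 59.9 in WT mice. The high value was again that of the shallow lane, and the log2 fold change of 0.23 was -0.011 without it. *Tnfrsf1b*, encoding the receptor of immune cells, had raw counts of 18, 18 and 10 in *Fmr1* KO and 16, 20 and 19 in WT lanes and was not tested. All 6 tested receptor genes had a log2 fold change above 0, against 52.7% of all tested probes, with a median of 0.23. That median was 0.11 without *Fmr1* KO replicate 2 and 0.15 without WT replicate 2. *Ltbr* changed sign without *Fmr1* KO replicate 2, and *Tlr4* and *Tnfrsf1a* without WT replicate 2. The summed normalized count of the 6 genes was 445, 534 and 475 in *Fmr1* KO and 417, 375 and 441 in WT replicates 1, 2 and 3, highest in the shallow lane.

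For the adaptors, IRAK kinases and TRAFs, 8 of 9 genes were tested and none passed at an unadjusted p under 0.05. *Irak1* encodes a kinase that binds MyD88 after interleukin-1 or Toll-like receptor engagement. It had 206, 300.4 and 225 normalized counts in *Fmr1* KO and 206, 212 and 199 in WT mice. *Fmr1* KO replicate 2 stood high and replicate 1 was level with the WT mice, and the log2 fold change was 0.22 (95% interval -0.08 to 0.53, adjusted p = 0.726 from edgeR). Without *Fmr1* KO replicate 2 it was 0.064.

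*Traf1*, an NF-κB target that modulates tumor necrosis factor signaling, had 23.0, 41.2 and 20.3 normalized counts in *Fmr1* KO and 14.1, 23.9 and 25.8 in WT mice. The groups overlapped, and the log2 fold change of 0.32 had a 95% interval of -0.43 to 1.07 (adjusted p = 0.883 from edgeR). It was 0.040 without *Fmr1* KO replicate 2, the mouse with the highest value, and 0.098 without WT replicate 1, the mouse with the lowest. For *Traf2*, *Traf3* and *Traf6*, the ubiquitin ligases that join receptors to kinases, log2 fold changes were -0.05, -0.02 and -0.04. Their 95% intervals lay between -0.35 and 0.27, so that a 1.5-fold difference in either direction was outside them. *Irak2* and *Irak4*, encoding further kinases of the MyD88 complex, had log2 fold changes of 0.14 and -0.11. That of *Irak2* was 0.045 without *Fmr1* KO replicate 2 and without WT replicate 2, and 0.27 without WT replicate 1. *Myd88*, encoding the adaptor shared by interleukin-1 and most Toll-like receptors, had 33, 23 and 20 raw counts in *Fmr1* KO and 29, 27 and 36 in WT lanes, with a log2 fold change of -0.07 (95% interval -0.65 to 0.52). *Irak3*, encoding an inhibitory member of the kinase family, had 9 to 14 raw counts in every lane and was not tested.

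Among the IκB kinases, *Chuk*, encoding IKKα, had the highest counts of the members' probes. It had 466, 529 and 530 normalized counts in *Fmr1* KO and 469, 453 and 449 in WT mice. *Fmr1* KO replicates 2 and 3 were above every WT mouse, and replicate 1 was below WT replicate 1. The log2 fold change was 0.15 (standard error 0.08, 95% interval -0.03 to 0.33, adjusted p = 0.714 from edgeR). Without *Fmr1* KO replicate 1, *Chuk* and *Irak1* joined *Nfkbia* and *Il1r1* at an unadjusted p under 0.05, with log2 fold changes of 0.21 and 0.34 and adjusted p of 0.319 and 0.358 from edgeR.

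*Ikbkb*, encoding IKKβ, had 236 ± 13.4 normalized counts in *Fmr1* KO and 251 ± 23.0 in WT mice (SD, n = 3 each). This was a difference of -0.09 on the log2 scale (95% interval -0.33 to 0.15). *Ikbkg*, encoding the regulatory subunit NEMO, had a log2 fold change of 0.15 (95% interval -0.21 to 0.50). With 1 mouse left out, *Ikbkb* spanned -0.16 (without WT replicate 2) to -0.041 (without *Fmr1* KO replicate 1), and *Ikbkg* spanned 0.039 (without *Fmr1* KO replicate 1) to 0.23 (without *Fmr1* KO replicate 2). *Ikbke*, encoding the IKK-related kinase ε, had 18, 17 and 11 raw counts in *Fmr1* KO and 17, 17 and 13 in WT lanes and was not tested. The 3 tested genes of the canonical complex therefore had intervals within 1.5-fold in either direction.

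*Map3k14* encodes NIK, the kinase that starts the noncanonical arm. It had 16.1, 18.9 and 20.3 normalized counts in *Fmr1* KO and 20.6, 23.9 and 25.8 in WT mice. Every *Fmr1* KO mouse was below every WT mouse, as for 6.82% of all tested probes. The raw counts were 21, 11 and 18 in *Fmr1* KO and 22, 24 and 28 in WT lanes, close to the minimum. The 3 WT lanes were by themselves enough to meet it, and *Fmr1* KO replicate 1 was also above 20. The log2 fold change was -0.37 (standard error 0.26, 95% interval -0.95 to 0.21, adjusted p = 0.766 from edgeR). Counting error alone gives a standard error of 0.26 at these counts. After subtraction of a background estimate the log2 fold change was -0.97, with an adjusted p of 0.671 from edgeR, where the range over all alternatives was 0.645 to 0.999. Subtraction left *Fmr1* KO replicate 2 at 0.36 normalized counts. The fit used subtracted counts rounded to whole numbers, in which this mouse had no counts left. With that mouse left out as well, the log2 fold change after subtraction was -0.59.

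Of the cytosolic sensors, *Nod1*, which detects bacterial cell wall peptides, had 33.0, 51.5 and 29.3 normalized counts in *Fmr1* KO and 36.6, 42.9 and 47.0 in WT mice. *Fmr1* KO replicates 1 and 3 were below every WT mouse and replicate 2 was above them, with a log2 fold change of -0.21 (95% interval -0.76 to 0.33, adjusted p = 0.902 from edgeR). Without *Fmr1* KO replicate 2 it was -0.42, and without replicate 3 of that group -0.071. *Nlrp3*, the sensor of an inflammasome that activates interleukin-1β, had 14, 16 and 12 raw counts in *Fmr1* KO and 21, 16 and 14 in WT lanes and was not tested.

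The 12 members under the minimum had counts in or near the range of the lowest probes of the panel. A set of 143 probes had raw counts of at most 20 in every lane, and their mean raw count per lane lay between 8.29 and 11.0 although the totals differed by about 2-fold. Of the 12 members 9 belonged to this set, which the same count of 20 defines, so this was partly fixed in advance. *Il1b* had 6, 6 and 4 raw counts in *Fmr1* KO and 7, 6 and 3 in WT lanes, and only 6.29% of the set had a mean as low or lower. For the others of the 9 this share ran up to 98.6%, for *Tnfrsf1b*. *Tnf* had 9, 12 and 3 raw counts in *Fmr1* KO and 8, 7 and 10 in WT lanes, and *Il1rn* had 10, 9 and 6 in *Fmr1* KO and 8, 9 and 4 in WT lanes. *Il1a* had 16, 11 and 9 raw counts in *Fmr1* KO and 10, 10 and 15 in WT lanes. A difference in these ligands was not detectable at this depth.

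Raw counts of the 12 members summed to 159, 162 and 120 in *Fmr1* KO and 173, 150 and 160 in WT replicates 1, 2 and 3, a narrow range. After the lane factors the sums were 122, 278 and 135 in *Fmr1* KO and 162, 149.5 and 147 in WT mice. All 12 had their highest normalized value in *Fmr1* KO replicate 2, as had 12 of the 22 tested members (54.5%) and 36.4% of all tested probes. A ratio of mean normalized counts above 1.2 was seen for 6 of the tested members (27.3%), against 15.1% of all tested probes, and a ratio below 0.8 for 1 (4.55%), *Map3k14*, against 3.49%. The median coefficient of variation of the tested members was 15.4% in *Fmr1* KO and 11.7% in WT mice, and it was 9.02% between *Fmr1* KO replicates 1 and 3 alone. Over all tested probes it was 12.1% in *Fmr1* KO and 9.06% in WT mice, and 9.25% between these 2 *Fmr1* KO mice.

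**Figure D4:**
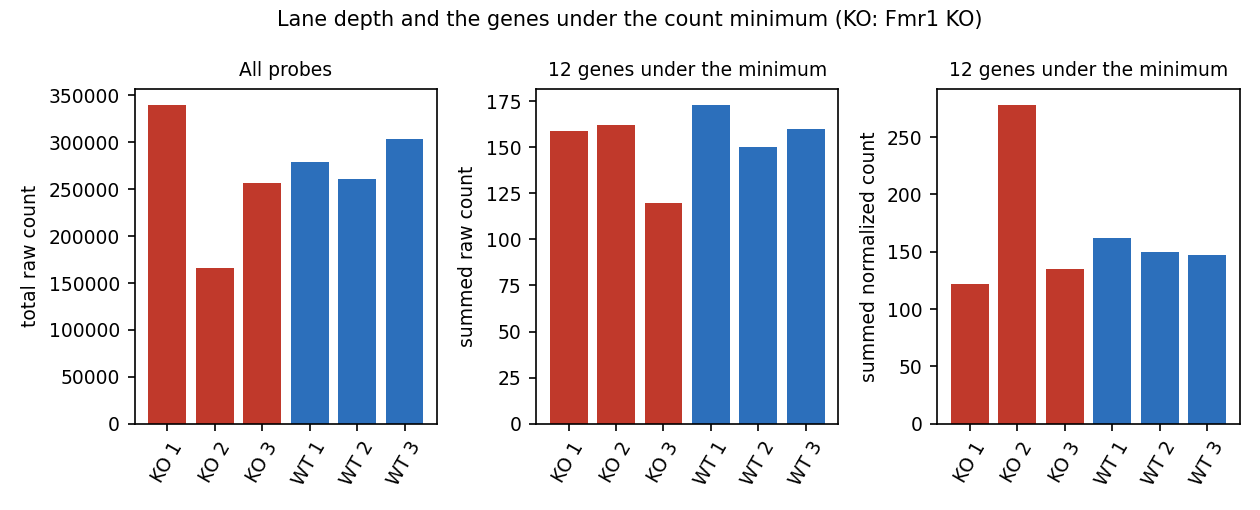
Bars per lane, *Fmr1* KO left of WT, of total raw counts, of the summed raw count of the 12 members under the minimum, and of the same sum after the lane factors. The raw sums stay between 120 and 173 in all lanes, and the normalized sum reaches 278 in *Fmr1* KO replicate 2.

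How large a difference the data could still hold was read from the 95% intervals. For 13 of the 22 tested members (59.1%) the interval lay within 1.5-fold in both directions, against 66.9% of all tested probes, and for 20 (90.9%) it lay within 2-fold, against 93.5%. The exceptions at 2-fold were *Il1r1* and *Traf1*. By class, 11 of the 16 intracellular genes and 2 of the 6 receptor genes were within 1.5-fold. The median log2 fold change was 0.01 over the intracellular genes and 0.23 over the receptor genes, and the difference between these classes was not tested. With 1 mouse left out the medians spanned -0.046 to 0.061 for the intracellular genes and 0.11 to 0.34 for the receptor genes, each lowest without *Fmr1* KO replicate 2. The intervals above are of counts without background subtraction, and for members near 20 counts they can be too narrow. With background subtracted, *Map3k14* had a log2 fold change of -0.97 in place of -0.37. *Tlr4* stayed at 0.23, but its unadjusted p from edgeR rose from 0.515 to 0.730. Intervals after subtraction are not given, so a 2-fold difference is not excluded for such members.

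Other genes of the same pathways were taken from a list of 83, of which 37 were on the panel and 20 were tested. None passed after adjustment in edgeR, and before adjustment 1 was lower and none higher at p under 0.05. The lower gene was *Tnfrsf12a*, encoding Fn14, the receptor of the cytokine TWEAK. It had 71.3, 108 and 105 normalized counts in *Fmr1* KO and 116, 162 and 172 in WT mice. Every *Fmr1* KO mouse was below every WT mouse, as for 6.82% of all tested probes. That was also so for *Map3k1* and *Bcl10* of this list, *Bcl10* being named after its values were seen. The log2 fold change of *Tnfrsf12a*, -0.70, was the lowest of the 601 tested probes (standard error 0.20, adjusted p = 0.219 from edgeR). *Tnfrsf12a* did not pass the adjusted threshold under any alternative, with adjusted p from 0.0696 to 0.703. *Tnfsf12*, encoding TWEAK itself, had a log2 fold change of 0.06 and was named after its value was seen.

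The next smallest p-values of that list were those of *Map3k1*, encoding a kinase upstream of JNK, and *Tnfrsf11b*, encoding the decoy receptor osteoprotegerin. Their log2 fold changes were -0.23 and 0.36, with adjusted p of 0.740 and 0.80 from edgeR. *Map3k1* was at -0.094 without *Fmr1* KO replicate 1, and *Tnfrsf11b* ranged over 0.19 (without WT replicate 1) to 0.67 (without WT replicate 3). The median log2 fold change of the 20 genes was -0.01.

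A further list of 36 genes known to be induced by NF-κB held none of the members. It had 19 genes on the panel, with *Relb*, *Cd40* and *Birc3* shared with the preceding list, and 9 of the 19 were tested. None passed at an unadjusted p under 0.05 in either direction, and 5 of the 9 had a log2 fold change above 0, with a median of 0.03. The smallest p-values were those of *Bcl2l1*, encoding the survival protein Bcl-xL, *Cd83*, encoding a surface protein of activated immune cells, and *Bcl2a1a*, encoding a relative of Bcl-2. Their log2 fold changes were 0.21, 0.13 and -0.25, with adjusted p of 0.630, 0.754 and 0.907 from edgeR. *Bcl2l1* was at 0.14 without *Fmr1* KO replicate 2, and *Cd83* at 0.052 without WT replicate 2. *Bcl2a1a* ranged over -0.47 (without *Fmr1* KO replicate 2) to -0.047 (without WT replicate 3), and was at -0.60 with background subtracted. The chemokine genes *Ccl2*, *Ccl3*, *Ccl4*, *Ccl5*, *Ccl7*, *Cxcl9* and *Cxcl10* and the cytokine gene *Il6*, named after their counts were seen, had raw counts of 3 to 19 in all lanes and were not tested.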

How the data were processed

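The deposited raw counts per probe and lane were made by the authors with the nCounter instrument and exported from nSolver 4.0. The authors' value table holds a signal, which is the count multiplied by 1 factor per lane and raised to 1 where lower, as happened for 1 value. The methods base normalization on 7 housekeeping genes. Lane factors were recovered from the ratio of both tables. Of the 787 probes, 772 were named by RefSeq accession (GRCm38.p6) and 15 by symbol.

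Groups were taken from the genotype labels. The quasi-likelihood test of edgeR 4.0.16 (glmQLFit, glmQLFTest; R 4.3.3) was run on the raw counts, with lane sizes set by these factors, over the 601 probes above 20 counts in at least 3 lanes. Adjusted p-values follow Benjamini and Hochberg over these probes, and the standard error is the log2 fold change over the square root of F. The fit was also run on counts simulated under its own model without added background, which cannot test whether that model holds for these data. With 3 mice a group, the smallest two-sided p of an exact permutation test is 0.1, and none was run. The p-values set the difference between the groups against a spread between these mice that edgeR estimates with information from all tested probes.

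Alternatives were other scalings (TMM, median ratio), other filters, DESeq2 1.42.0, limma 3.58.1, the methods' t-test, the value table, a background subtraction, the replicate number as a block, and each mouse left out. The members, gene lists and alternatives were chosen with earlier results of these data known, and subtraction together with leaving out *Fmr1* KO replicate 2 was added after the data were seen. Values per mouse are given for members with an unadjusted p under 0.05, the 2 smallest p of each role, and members whose groups do not overlap, and raw counts for members under the minimum. Values per mouse of *Tlr4*, *Cd14*, *Myd88* and *Ltbr* were added after they were seen. From the other lists, genes with an unadjusted p under 0.05 and the 3 with the smallest p are named.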

Additional observations from a re-analysis of the deposited data

How the results depend on the processing

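No member passed the adjusted threshold under any of the 18 alternatives. Over all probes, 3 were called higher and 2 lower. Both counts were 0 with the methods' t-test, the lower count was 1 without a filter, for probes averaging 50 raw counts or more and with the replicate block, and the higher count was 6 with background subtracted and without *Fmr1* KO replicate 2. Leaving out 1 mouse gave 1 to 9 higher and 1 to 3 lower calls. The count of members higher at an unadjusted p under 0.05, 2 in the fit reported, was 1 with DESeq2 or for probes averaging 50 raw counts or more, 0 with the methods' t-test and 0 with background subtracted and without *Fmr1* KO replicate 2. It was 0 to 4 with 1 mouse left out: 0 without *Fmr1* KO replicate 2 or 3 or WT replicate 1 or 3, 1 without WT replicate 2 and 4 without *Fmr1* KO replicate 1. The median log2 fold change of the members then ranged over 0.033 to 0.13. Of 22 members 10 changed direction in some fit. With 1 mouse left out, log2 fold changes spanned -0.048 to 0.53 for *Tlr4*, -0.025 to 0.26 for *Tnfrsf1a*, -0.011 to 0.40 for *Ltbr*, -0.27 to 0.072 for *Myd88*, -0.22 to 0.035 for *Irak4*, -0.10 to 0.032 for *Traf2*, -0.13 to 0.082 for *Traf3*, -0.13 to 0.035 for *Traf6*, -0.036 to 0.18 for *Nfkb1*, -0.014 to 0.29 for *Nfkb2* and -0.33 to 0.031 for *Relb*. *Nfkb1* was also at -0.020 with background subtracted and without *Fmr1* KO replicate 2. The causes were not tested. *Nfkbia* ranged over 0.35 to 0.66 and *Il1r1* over 0.38 to 0.85, higher in every fit. Same-numbered mice did not deviate together (r = -0.06, -0.08 and 0.10 across probes, which are not independent). The values were centred within each group first, so these correlations cannot settle whether the numbers pair the samples. With the replicate block, *Nfkbia* had a log2 fold change of 0.52 and *Il1r1* 0.57, and no member's call changed. Counts near 20 limit what can be seen for *Tlr4*, *Cd14*, *Traf1*, *Myd88* and *Map3k14*.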
